A study of Alligator mississippiensis with 4 samples.

Results

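Matrix proteases and their inhibitors were examined in the dermis of alligator overlapping scales. Members were the rows of the deposited table whose symbol names a matrix metalloproteinase (MMP), an ADAM or ADAMTS protease, a tissue inhibitor of metalloproteinases (TIMP), an HTRA protease or a cathepsin (CTS), together with PI16, RECK, PLAU, PLAT and FAP. The rule took 45 of the 10466 rows, which stand for 42 symbols, since MMP11, ADAMTS6 and ADAMTS8 each have 2 rows, one for each transcript record. By class these were 8 MMP, 2 TIMP, 3 ADAM, 14 ADAMTS and ADAMTS-like, 2 HTRA, 11 cathepsin and 5 other rows. The rule reads symbols and uses no value of the table, although it was chosen with earlier results of these data known.

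The 4 libraries came from *Alligator mississippiensis* embryos of untreated, fertilized eggs, with 1 library each for Es22 dorsal, Es22 ventral, Es19 dorsal and Es19 ventral dermis. Es22 is the bud stage and Es19 the placode stage, in which the scale primordia are first seen. The epidermis was peeled off after treatment with a salt solution free of calcium and magnesium, and RNA was taken from what remained. The study's methods speak of replicate samples, whereas the labels give 1 library per region and stage, and neither says how many embryos went into a library.

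Matrix metalloproteinases and ADAMTS proteases are secreted or membrane-bound zinc enzymes that cut collagens, proteoglycans and other matrix proteins, and most are made as inactive precursors. TIMPs block their active site, RECK holds some of them in check at the cell surface, and the plasminogen activators PLAU and PLAT start a serine protease cascade that acts on fibrin and on matrix. Cathepsins work mainly in lysosomes, where matrix taken up by the cell is broken down, and some are also secreted. In skin, these enzymes are known for the turnover of the collagen network as the dermis grows. The roles given here are known mostly from mammals.

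Values are CPM (reads scaled to a common library size) that the authors scaled with trimmed means of M values (TMM), a correction for differences in RNA composition. The rows held 13220853 reads in Es22 dorsal, 10722075 in Es22 ventral, 11701506 in Es19 dorsal and 11581288 in Es19 ventral dermis, and 1 read was worth from 0.0679 to 0.103 CPM. Of 21 dermal fibroblast markers 16 had a row, and their summed level was 447650 and 357250 CPM in Es22 dorsal and ventral dermis, against 193290 and 94627 CPM in Es19 dorsal and ventral dermis. Markers of other tissues were also read. Their sums in the same order were 1042, 258, 42.3 and 52.5 CPM for 9 of 27 epidermal markers, 551, 1842, 227 and 287 CPM for 12 of 23 skeletal muscle markers, 978, 786, 477 and 508 CPM for 16 of 20 endothelial markers, 604, 482, 642 and 493 CPM for 9 of 19 markers of cartilage and bone, 477, 415, 312 and 234 CPM for 7 of 16 markers of Schwann cells and neurons, and 10838, 13082, 916 and 3272 CPM for 10 of 20 red blood cell markers. Apart from cartilage and bone, every list summed higher in each Es22 library than in the Es19 library of its region, and no marker with a row stood at 0. The sums follow their highest genes. COL1A1 and COL1A2 had 244340 and 179380 CPM in Es22 dorsal dermis, and PMP22 of the Schwann cell list had 386 CPM. Of 16 fibroblast markers, 13 were higher at Es22 in both regions and 2 lower, and of 7 Schwann cell and neuron markers 5 were higher and 1, NEFM, lower. The muscle list was lower in dorsal than in ventral dermis at Es22 and at Es19, and the epidermal list was highest in Es22 dorsal dermis. The part these tissues played in the members' values was not tested.

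Of the 45 members, 15 averaged at least 100 CPM over the 4 libraries, 15 lay between 10 and 100 CPM and 15 were below 10 CPM. CPM are not corrected for transcript length, so levels are not compared between genes here. A mean of at least 1 CPM was reached by 44 members, which were tested with 10236 rows in all, and the exception was the ADAMTS-like record ADAMTSL7, at 0.961 and 1.24 CPM in Es22 dorsal and ventral dermis and 0.929 and 0.475 CPM in Es19 dorsal and ventral dermis. CTSW was the only member with 0 reads in a library. The RefSeq annotation of assembly rAllMis1 lists 67 symbols that fit the name rule, of which 37 had a row, and 30, among them MMP2, TIMP2, TIMP3, CTSL, HTRA1 and ADAMTS9, were not analysed here. That annotation does not list 5 member symbols, ADAMTSL7, CTSF, CTSS, CTSW and MMP1, so which gene each of these records stands for was not settled. In the plot of all members by library, spans between the lowest and the highest library differed widely within every class with more than 2 rows.

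**Figure D1:**
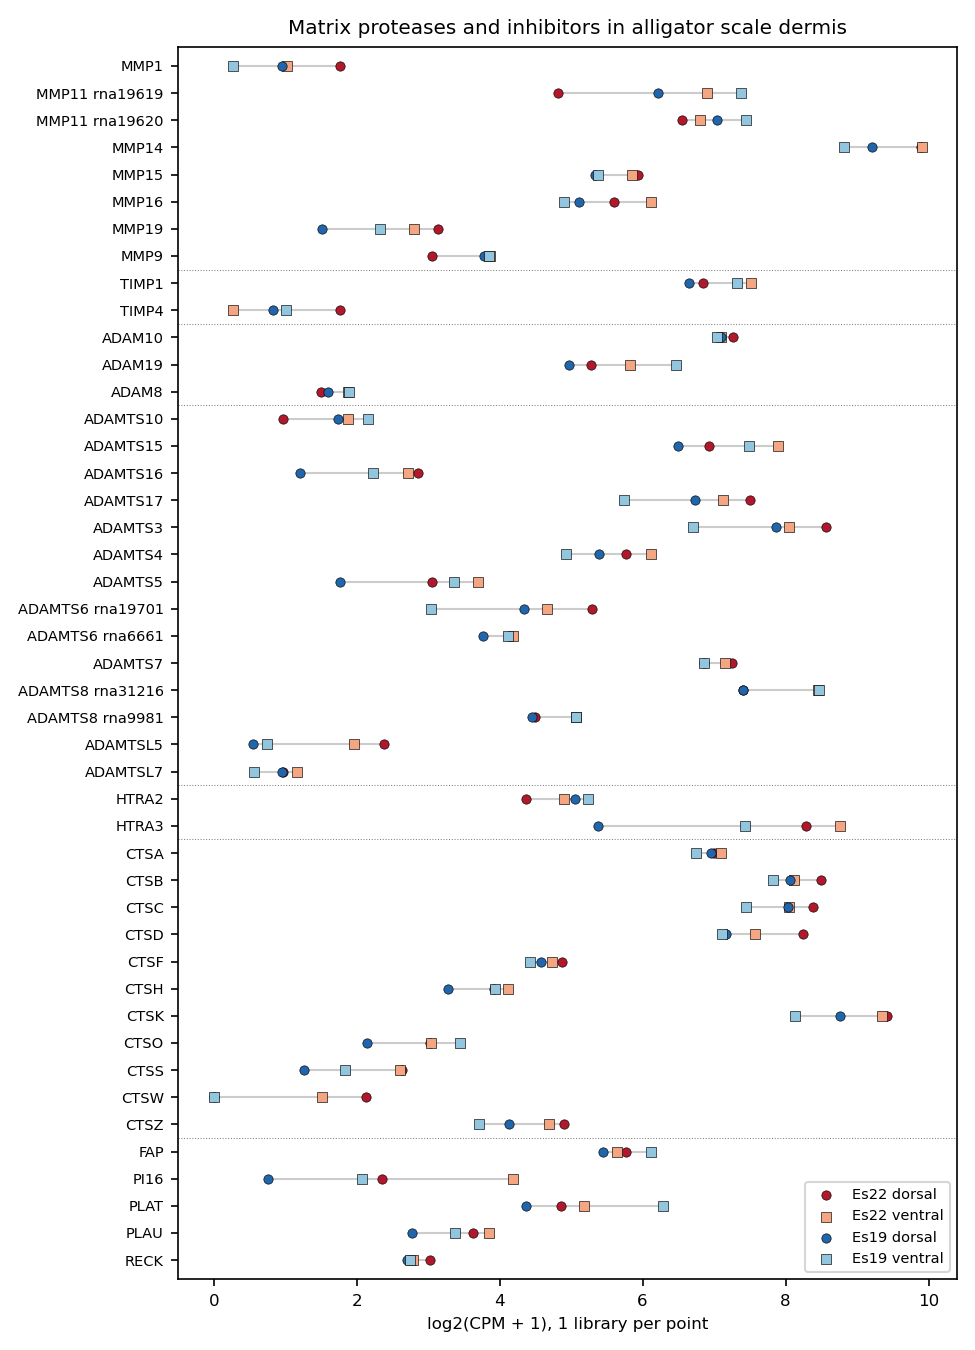
Levels of the 45 members as log2(CPM + 1) on the x axis, with 1 point per library (red circles Es22 dorsal, orange squares Es22 ventral, dark blue circles Es19 dorsal, light blue squares Es19 ventral) and dotted lines between classes. HTRA3 runs from 40.6 to 433 CPM across the libraries, whereas ADAM10 stays between 131 and 152 CPM.

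Between stages, most members stood higher at Es22 on the TMM scale. The TMM factors were 0.787 and 0.904 in Es22 dorsal and ventral dermis, against 1.10 and 1.27 in Es19 dorsal and ventral dermis. These factors raise every row at Es22 relative to Es19. Tested members summed to 4980 and 5178 CPM at Es22, against 3386 and 3516 CPM at Es19, dorsal before ventral. All tested rows summed to 1.27e+06 and 1.106e+06 CPM, against 9.0543e+05 and 7.8563e+05 CPM, also higher at Es22. On the log2(CPM + 1) scale the median member differed by 0.49 in dorsal and 0.34 in ventral dermis (Es22 minus Es19), against −0.01 and 0.01 over all rows tested. Of the 44 members tested, 32 (72.7%) stood higher at Es22 in dorsal and in ventral dermis by any amount, and 6 (13.6%) were lower in both, beside 34.3% and 33.3% of all rows. The other 6 went in opposite directions in dorsal and ventral dermis. By class, the count higher in both regions was 10 of 11 cathepsins, 11 of 13 ADAMTS rows, 5 of 8 MMP rows, 1 of 3 ADAM rows, 1 of 2 TIMPs, 1 of 2 HTRA rows and 3 of the 5 others. These counts take small and large differences alike. Rescaling by the median ratio moved 32 to 31 and the 11 ADAMTS rows to 10. Its factors, from 0.997 to 1.01 on values already TMM-scaled, left little room to change a direction. No count was made without TMM. In bulk tissue, fewer cells of a type and less RNA per cell cannot be told apart.

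A member was counted as differing between stages by size when log2(CPM + 1) was at least 1 apart, which is 2-fold on that scale, in the same direction in dorsal and in ventral dermis. Here 2-fold refers to that scale unless plain CPM are named, and on it a low gene can stay under 2-fold while its plain CPM ratio is larger. HTRA3, PI16, ADAMTSL5 and CTSW were higher at Es22 by this rule, which is 4 members beside 3.26% of all rows, and 0 were lower, beside 0.537% of all rows. No library enters both regional comparisons, and each rests on 1 library a side. In limma, fitted to log2(CPM + 1) of all 10236 rows with region and stage as terms, HTRA3, PI16, CTSW and ADAMTS17 rose at Es22 and 0 members fell, beside 2.66% of all rows that were called higher and 0.469% called lower. That fit leaves 1 residual degree of freedom, which is the unequal stage difference of the 2 regions. limma joined it to a variance drawn from all rows along a trend with level, which weighed as 4.89 degrees of freedom. Neither is replicate error. At an unadjusted p below 0.05, 26 of the 44 members passed, beside 20.6% of all rows. edgeR's quasi-likelihood test on reads recovered from the CPM called 8 members higher at Es22, beside 4.17% of all rows, and 0 lower, beside 0.86%. The 4 members called by limma were lost with a pseudocount of 5 and in a fit without region, and at most 1 was called when any 1 library was left out, namely HTRA3 without Es19 ventral dermis.

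The serine protease HTRA3, a secreted enzyme known in mammals to cut proteoglycans and to bind TGF-β family ligands, had the largest stage difference of the members in dorsal dermis on the log2(CPM + 1) scale. It stood at 311 CPM in Es22 dorsal and 433 CPM in Es22 ventral dermis, against 40.6 CPM in Es19 dorsal and 172 CPM in Es19 ventral dermis. Both Es22 libraries lay above both Es19 libraries, and Es19 dorsal dermis was far below the rest. The ratio of Es22 to Es19 was 7.64 (95% interval 6.97 to 8.40) in dorsal and 2.52 (2.40 to 2.65) in ventral dermis. The intervals beside ratios are exact binomial intervals on the reads and cover counting error only. They hold no variation between embryos or libraries, since each group is 1 library. They also take every read as an independent molecule, which reads without molecular identifiers need not be. limma gave a log2 difference of 2.12 (standard error 0.35, adjusted p = 0.041, Benjamini-Hochberg over all rows), and over all alternatives its adjusted p ran from 0.022 to 0.51. The call was lost when the libraries were rescaled by their upper quartile. The log2 difference was 1.09 without Es19 dorsal and 3.14 without Es19 ventral dermis, in fits from which region drops out as well.

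PI16, a secreted protein of mammalian fibroblasts named as a peptidase inhibitor, had 4.13 CPM in Es22 dorsal and 17.2 CPM in Es22 ventral dermis, against 0.697 CPM in Es19 dorsal and 3.19 CPM in Es19 ventral dermis. These values rest on 43, 167, 9 and 47 reads. Es22 ventral dermis stood apart at the top, and each Es22 library lay above both Es19 libraries. Es22 dorsal and Es19 ventral dermis were not apart beyond counting error, with Poisson 95% intervals of 2.99 to 5.56 and 2.34 to 4.24 CPM. The ratio of Es22 to Es19 was 5.93 (95% interval 2.85 to 13.8) in dorsal and 5.40 (3.89 to 7.64) in ventral dermis. In limma the stage difference was 1.86 (standard error 0.28, adjusted p = 0.031), and over all alternatives its adjusted p ran from 0.012 to 0.51. With 1 library left out, region dropped out of the fit as well, so the region difference of PI16 entered its stage difference. The stage difference was then 2.77 without Es22 dorsal, 0.94 without Es22 ventral, 1.21 without Es19 dorsal and 2.51 without Es19 ventral dermis. With only rows of at least 5 CPM on average tested, PI16 was no longer called.

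Among the ADAMTS proteases, ADAMTS17, an enzyme linked in humans to fibrillin microfibrils, had 181 and 139 CPM in Es22 dorsal and ventral dermis, against 106 and 52.4 CPM in Es19 dorsal and ventral dermis. Both Es22 libraries exceeded both Es19 libraries, and dorsal exceeded ventral dermis at each stage. It was 1.71-fold (95% interval 1.60 to 1.84) higher at Es22 in dorsal and 2.65-fold (2.42 to 2.90) higher in ventral dermis, and limma gave a log2 difference of 1.08 (standard error 0.19, adjusted p = 0.047, from 0.026 to 0.58 over all alternatives). Upper-quartile rescaling ended this call too. ADAMTS3, which removes the amino-terminal propeptide of fibrillar procollagens and activates the lymphatic growth factor VEGFC, showed the same order of libraries, with 378 and 265 CPM in Es22 dorsal and ventral dermis, against 231 and 104 CPM in Es19 dorsal and ventral dermis. Its stage ratios were 1.64 (1.56 to 1.72) in dorsal and 2.55 (2.40 to 2.72) in ventral dermis, and it did not pass in limma (log2 difference 1.03, standard error 0.19, adjusted p = 0.054), whereas edgeR called it (adjusted p = 0.035). ADAMTS6 record rna19701, a relative of the fibrillin-binding ADAMTS10 that was picked out here after its values were seen, had 38.1 and 24.2 CPM in Es22 dorsal and ventral dermis, against 19.2 and 7.19 CPM in Es19 dorsal and ventral dermis. It had the same order of libraries again and an adjusted p of 0.054 in limma and 0.028 in edgeR. The other ADAMTS6 record, rna6661, ranged from 12.6 to 17.2 CPM over the libraries. These records are not numbered next to each other, and whether both stand for ADAMTS6 was not settled.

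ADAMTSL5, a secreted relative of the ADAMTS family that lacks the protease domain, had 4.23 and 2.89 CPM in Es22 dorsal and ventral dermis, against 0.464 and 0.679 CPM in Es19 dorsal and ventral dermis. Both Es22 libraries were above both Es19 libraries, from few reads. It was 9.10-fold (95% interval 3.86 to 26.1) higher at Es22 in dorsal and 4.26-fold (2.01 to 9.82) higher in ventral dermis. limma gave an adjusted p of 0.054 and edgeR one of 0.031.

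**Figure D2:**
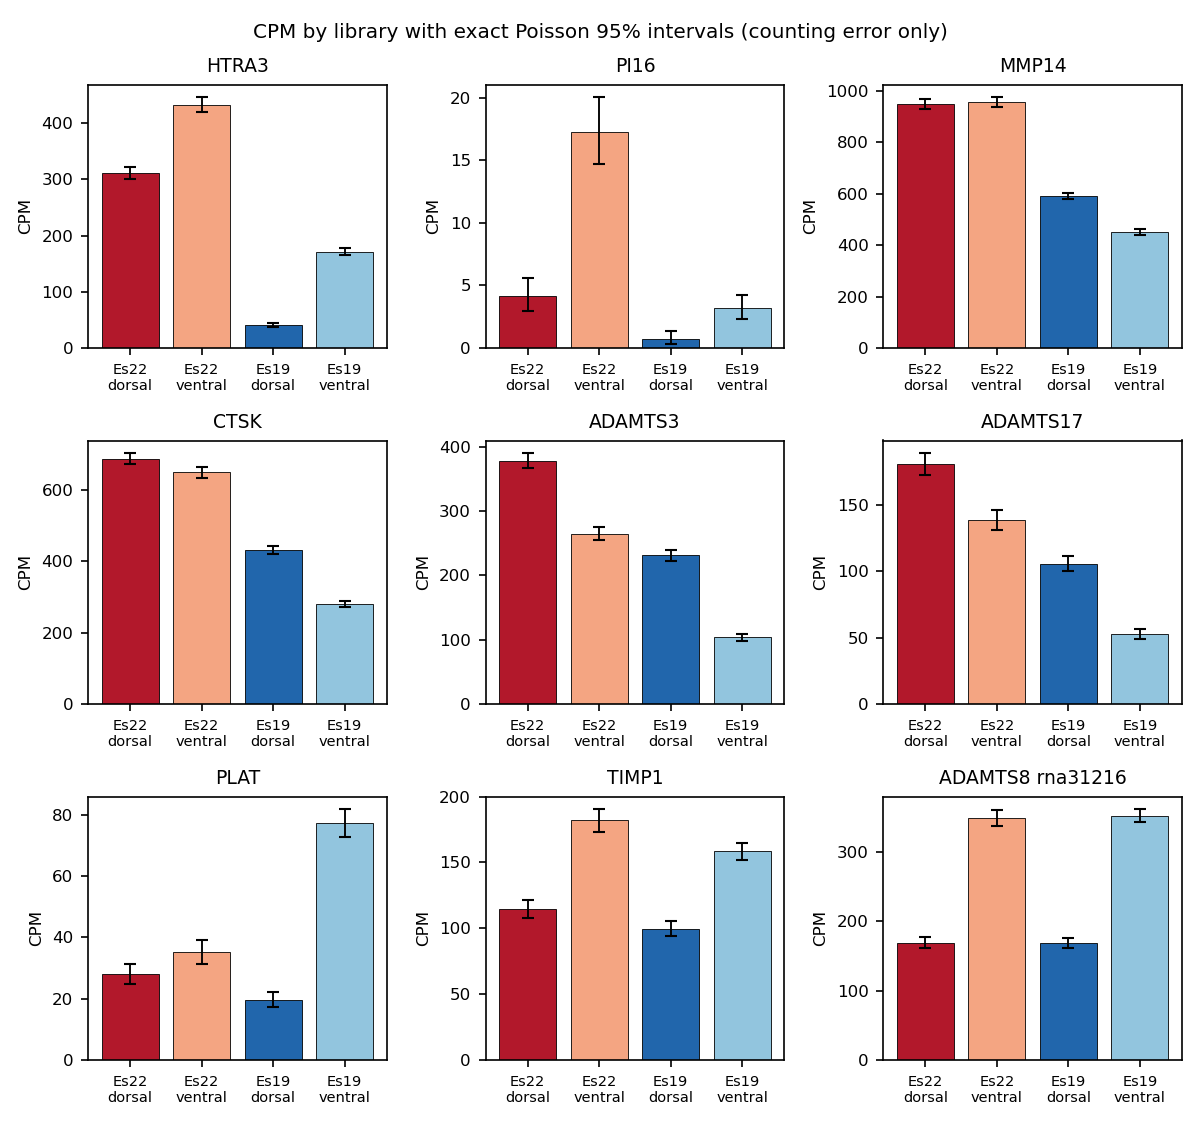
CPM of 9 members in the 4 libraries, with Es22 dorsal, Es22 ventral, Es19 dorsal and Es19 ventral dermis from left to right, where bars are the values of single libraries and whiskers exact Poisson 95% intervals that cover counting error only. HTRA3 and PI16 are highest in Es22 ventral dermis, ADAMTS17 and ADAMTS3 in Es22 dorsal dermis and PLAT in Es19 ventral dermis, while the ADAMTS8 record rna31216 is about level between stages.

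Of the matrix metalloproteinases, MMP14, the membrane-bound collagenase that also activates the precursor of MMP2, had 950.0 and 956 CPM in Es22 dorsal and ventral dermis, against 591 and 451 CPM in Es19 dorsal and ventral dermis. The Es22 libraries lay above the Es19 libraries and almost on one level. Ratios of Es22 to Es19 were 1.61 (95% interval 1.56 to 1.66) in dorsal and 2.12 (2.05 to 2.19) in ventral dermis, and the stage difference did not pass in limma (log2 difference 0.88, standard error 0.18, adjusted p = 0.069). MMP11, which in mammals is made by stromal cells around remodelling epithelia, stood on the other side in both of its records. Record rna19619 had 27.2 and 119 CPM in Es22 dorsal and ventral dermis, against 73.1 and 165 CPM in Es19 dorsal and ventral dermis, so the stages overlapped. Record rna19620 had 92.4 and 110.3 CPM at Es22, against 130.5 and 173 CPM at Es19, again dorsal before ventral, and did not overlap between stages. limma gave stage differences of −0.94 (adjusted p = 0.10) for rna19619 and −0.57 (adjusted p = 0.10) for rna19620, and neither passed. Of the other 5 MMP records, MMP1, MMP15, MMP16 and MMP19 were higher at Es22 in dorsal and in ventral dermis and the gelatinase MMP9 was not, at 7.30 and 13.5 CPM in Es22 dorsal and ventral dermis, against 12.8 and 13.4 CPM in Es19 dorsal and ventral dermis.

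The cathepsins were the class with the most uniform direction, since all 11 were higher at Es22 in dorsal dermis and 10 in ventral dermis, with CTSO as the exception. The collagen-degrading cysteine protease CTSK, known best from osteoclasts, had 687 and 649 CPM in Es22 dorsal and ventral dermis, against 432 and 280.2 CPM in Es19 dorsal and ventral dermis. Both Es22 libraries exceeded both Es19 libraries, by 1.59-fold (95% interval 1.54 to 1.65) in dorsal and 2.31-fold (2.23 to 2.41) in ventral dermis. It missed the threshold in limma (log2 difference 0.94, adjusted p = 0.064) and passed in edgeR (adjusted p = 0.047). CTSB, a cysteine protease of lysosomes, had 358 and 276 CPM in Es22 dorsal and ventral dermis, against 265 and 226 CPM in Es19 dorsal and ventral dermis. CTSC, which trims dipeptides from other proteases, had 334 and 264 CPM at Es22, against 262 and 174 CPM at Es19, in the same regional order. For both genes the Es22 libraries lay above the Es19 libraries, with limma differences of 0.36 (adjusted p = 0.24) for CTSB and 0.47 (adjusted p = 0.16) for CTSC that did not pass.

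The record named CTSW, after a cathepsin of cytotoxic lymphocytes in mammals, rose at Es22. It had 35 reads in Es22 dorsal and 18 in Es22 ventral dermis, or 3.36 and 1.86 CPM, against 0 reads in Es19 dorsal and 0 in Es19 ventral dermis. A count of 0 allows up to 3 reads, or 0.232 CPM in Es19 dorsal and 0.204 CPM in Es19 ventral dermis. The Es22 values were 14.5-fold this floor in dorsal and 9.12-fold in ventral dermis, each set against the Es19 library of its region. Counting error of the 35 and 18 Es22 reads is not included, so these folds are not lower limits. limma gave an adjusted p of 0.036, from 0.012 to 0.35 over all alternatives. Of 19 listed macrophage and osteoclast markers, with the members CTSK and MMP9 left out, 10 had a row and 9 of these were tested. The 9 tested markers summed to 75.03 and 71.0 CPM in Es22 dorsal and ventral dermis, against 27.6 and 37.6 CPM in Es19 dorsal and ventral dermis. All 9 of those tested stood higher at Es22 in dorsal and in ventral dermis, which is the direction of the cathepsins. Most other lists shared it, with 14 of 16 endothelial, 13 of 16 fibroblast and 11 of 12 muscle markers higher in both regions. The same held for 9 of 10 red blood cell, 8 of 9 epidermal and 5 of 7 Schwann cell and neuron markers. Of the markers of cartilage and bone it held for 2 of 9. No list of lymphocyte markers was read, and the part of blood-derived cells in these values was not tested.

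Of the inhibitors, TIMP1, RECK and PI16 stood higher at Es22 in both regions by any amount, and TIMP4, with few reads, in dorsal dermis only. TIMP1 had 114 and 182 CPM in Es22 dorsal and ventral dermis, against 99.6 and 159 CPM in Es19 dorsal and ventral dermis. The stages overlapped, and Es22 exceeded Es19 by 1.15-fold in each region (95% intervals 1.06 to 1.24 in dorsal and 1.08 to 1.22 in ventral dermis), with a limma difference of 0.20 that did not pass (adjusted p = 0.48). TIMP4 had 25 and 2 reads in Es22 dorsal and ventral dermis, or 2.40 and 0.206 CPM, against 10 and 15 reads in Es19 dorsal and ventral dermis, or 0.774 and 1.02 CPM. Its Es22 libraries were the highest and the lowest of the 4. RECK, a membrane-anchored inhibitor of metalloproteinases, had 7.11 and 5.88 CPM in Es22 dorsal and ventral dermis, against 5.50 and 5.70 CPM in Es19 dorsal and ventral dermis, and every ratio of its libraries between stages or regions had a 95% counting interval that held 1.

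Of the remaining proteases, PLAU, the urokinase-type plasminogen activator, had 11.3 and 13.4 CPM in Es22 dorsal and ventral dermis, against 5.80 and 9.36 CPM in Es19 dorsal and ventral dermis, with both Es22 libraries on top and no call in limma (adjusted p = 0.20). PLAT, the tissue-type activator, had 28.0 and 35.1 CPM at Es22, against 19.7 and 77.2 CPM at Es19, dorsal before ventral, so that Es19 ventral dermis was well above the other libraries. FAP, a membrane protease of activated fibroblasts, had 53.2 and 48.7 CPM at Es22, against 42.6 and 68.5 CPM at Es19 in the same order, and its stages overlapped. HTRA2, a mitochondrial relative of HTRA3, had 19.6 and 28.8 CPM in Es22 dorsal and ventral dermis, against 32.1 and 36.6 CPM in Es19 dorsal and ventral dermis, with both Es22 libraries below and no call in limma (adjusted p = 0.21). The sheddase ADAM10 ranged from 131 to 152 CPM, and the leukocyte-associated ADAM8 from 1.83 to 2.71 CPM. Neither was apart between stages beyond counting error in both regions.

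**Figure D3:**
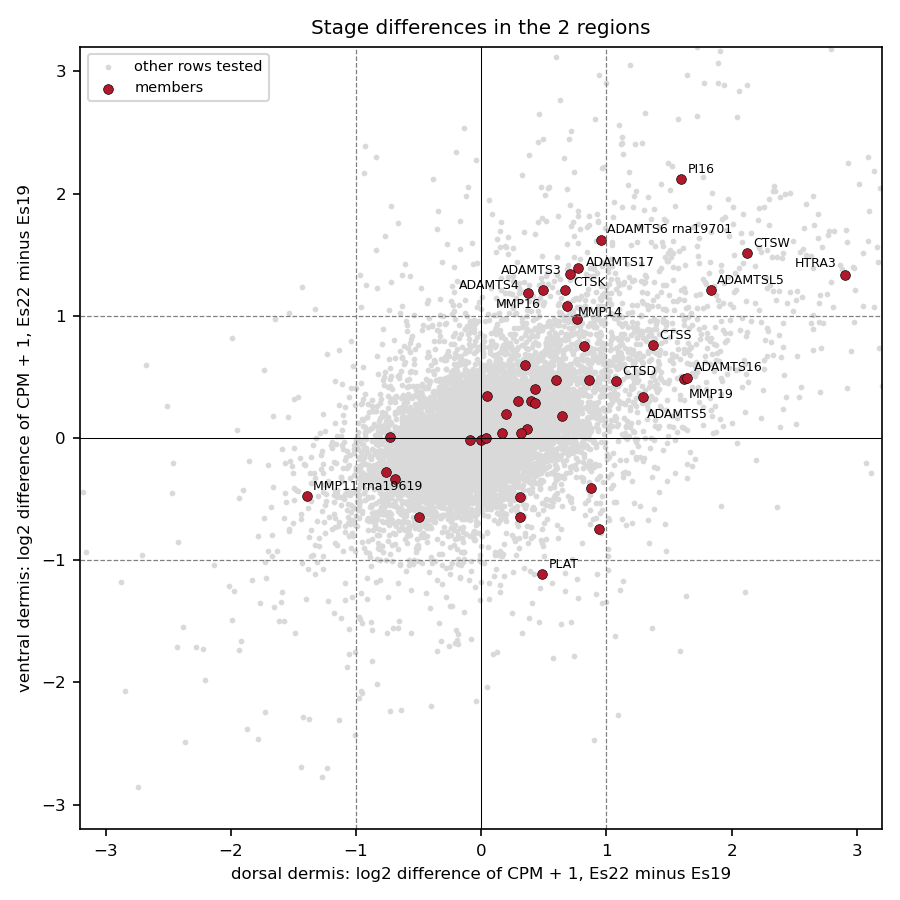
Difference in log2(CPM + 1), Es22 minus Es19, in dorsal dermis (x axis) and in ventral dermis (y axis) for the members (red) and the other rows tested (grey), with dashed lines at 2-fold and 82 rows outside the axes. Of the 44 members, 32 lie in the upper right, where PI16, HTRA3, CTSW and ADAMTSL5 are past the dashed lines in both regions, and 6 lie in the lower left.

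Taken in one region alone, 9 members stood 2-fold or more above Es19 in Es22 dorsal dermis, beside 8.15% of all rows, and 1, MMP11 record rna19619, was lower, beside 2.4%. In ventral dermis 11 were higher, beside 5.74%, and 1, PLAT, was lower, beside 1.74%. Of 44 members, 9 and 11 lie above the share of all rows, and 1 of 44 lies close to it. Past 2-fold in dorsal dermis alone were MMP19, ADAMTS5, ADAMTS16, CTSD and CTSS. In ventral dermis alone they were MMP14, MMP16, ADAMTS3, ADAMTS4, ADAMTS6 record rna19701, ADAMTS17 and CTSK. Whether the stage difference differed between regions was not tested for these genes, since the only residual degree of freedom is part of the error.

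Between regions, few members met the 2-fold rule at both stages. The median dorsal minus ventral difference of the members was −0.01 at Es22 and −0.19 at Es19, against −0.01 and −0.00 over all rows. Whatever the size, 11 members (25%) were higher in dorsal dermis at both stages, beside 24.5% of all rows, and 19 (43.2%) were higher in ventral dermis, beside 25.3%. By the 2-fold rule at both stages 0 members were higher in dorsal dermis, beside 0.596% of all rows, and 3 were higher in ventral dermis, beside 0.469%, namely MMP11 record rna19619, ADAMTS8 record rna31216 and PI16. limma called 0 members between regions, beside 0.137% of all rows called higher in dorsal and 0.0977% called higher in ventral dermis, and its smallest adjusted p for a member was 0.096. At an unadjusted p below 0.05 limma gave 15 members, beside 7.55% of all rows. edgeR also called 0 members, beside 0.44% of all rows, with a smallest adjusted p of 0.054.

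MMP11 record rna19619 had 27.2 CPM in Es22 dorsal against 119 CPM in Es22 ventral dermis, and 73.1 CPM in Es19 dorsal against 165 CPM in Es19 ventral dermis. Dorsal values were below ventral values without overlap, and lower by 4.37-fold (95% interval 3.83 to 4.99) at Es22 and 2.26-fold (2.10 to 2.44) at Es19. The second record, rna19620, was lower in dorsal dermis by 1.19-fold (1.09 to 1.30) at Es22 and 1.33-fold (1.25 to 1.41) at Es19. With both records summed, MMP11 had 120 CPM in Es22 dorsal against 229 CPM in Es22 ventral dermis and 204 CPM in Es19 dorsal against 338 CPM in Es19 ventral dermis, which is under 2-fold at both stages. How the authors' counting shared reads between records of one gene is not stated in the sources used here, so the split between the records is uncertain.

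The ADAMTS8 record rna31216, under the name of a proteoglycan-cutting protease, had 169 CPM in Es22 dorsal against 349 CPM in Es22 ventral dermis, and 169 CPM in Es19 dorsal against 352 CPM in Es19 ventral dermis. It was 2.07-fold (95% interval 1.95 to 2.19) lower in dorsal dermis at Es22 and 2.08-fold (1.98 to 2.19) lower at Es19. Between stages its ratios were 0.999 (0.938 to 1.06) in dorsal and 0.991 (0.949 to 1.04) in ventral dermis, so that of the 2 factors only region set its libraries apart beyond counting error. In limma the region difference was −1.05 (standard error 0.14, adjusted p = 0.096) and did not pass. ADAMTS8 record rna9981 was also lower in dorsal dermis, by 1.51-fold (1.27 to 1.81) at Es22 and 1.55-fold (1.33 to 1.81) at Es19, and the sum of both records fell just short of the 2-fold rule at Es22. Record rna31216 is numbered next to the ADAMTS5 record and rna9981 next to the ADAMTS15 record, whereas in the rAllMis1 annotation the neighbour of ADAMTS5 is ADAMTS1 and that of ADAMTS15 is ADAMTS8. ADAMTS1 has no row under its own symbol. Which gene record rna31216 stands for was therefore not settled.

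ADAMTS15, another proteoglycan-cutting member of the family, had 121 CPM in Es22 dorsal against 236 CPM in Es22 ventral dermis, and 89.5 CPM in Es19 dorsal against 178 CPM in Es19 ventral dermis. It lay just outside the rule, 1.95-fold (95% interval 1.82 to 2.09) lower in dorsal dermis at Es22 and 1.99-fold (1.85 to 2.13) lower at Es19. TIMP1 shared this order, 1.59-fold lower in dorsal dermis at both Es22 (1.48 to 1.71) and Es19 (1.49 to 1.70), with a limma difference of −0.66 (adjusted p = 0.25). PI16 was 4.17-fold (2.97 to 5.98) lower in dorsal dermis at Es22 and 4.58-fold (2.22 to 10.6) lower at Es19, with a limma difference of −1.57 (standard error 0.28, adjusted p = 0.17). With 1 library left out, stage dropped out of the fit as well, so the stage difference of PI16 entered its region difference. The region difference then lay between −2.63 and −0.51. On the log2(CPM + 1) scale PI16 was the one member past 2-fold in all 4 comparisons. On plain CPM the record named for the collagenase MMP1, picked out here after its values were seen, was past 2-fold in all 4 as well. It had 25 and 10 reads in Es22 dorsal and ventral dermis, against 12 and 3 reads in Es19 dorsal and ventral dermis. With records of one symbol summed, PI16 was the only member left under the region rule, although the records summed as ADAMTS8 may not be of the same gene. At both stages, ventral dermis was higher for 9 of 12 muscle markers and 8 of 10 red blood cell markers. It was higher for 4 of 9 macrophage and osteoclast markers, and 0 markers of these lists were higher in dorsal dermis at both stages. Fibroblast markers went the other way, with 11 of 16 higher in dorsal and 2 in ventral dermis. So did markers of cartilage and bone (5 of 9 against 2) and of Schwann cells and neurons (4 of 7 against 1). Epidermal markers stood at 3 of 9 against 0, and endothelial markers at 3 of 16 against 3. The part of these tissues was not tested.

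**Figure D4:**
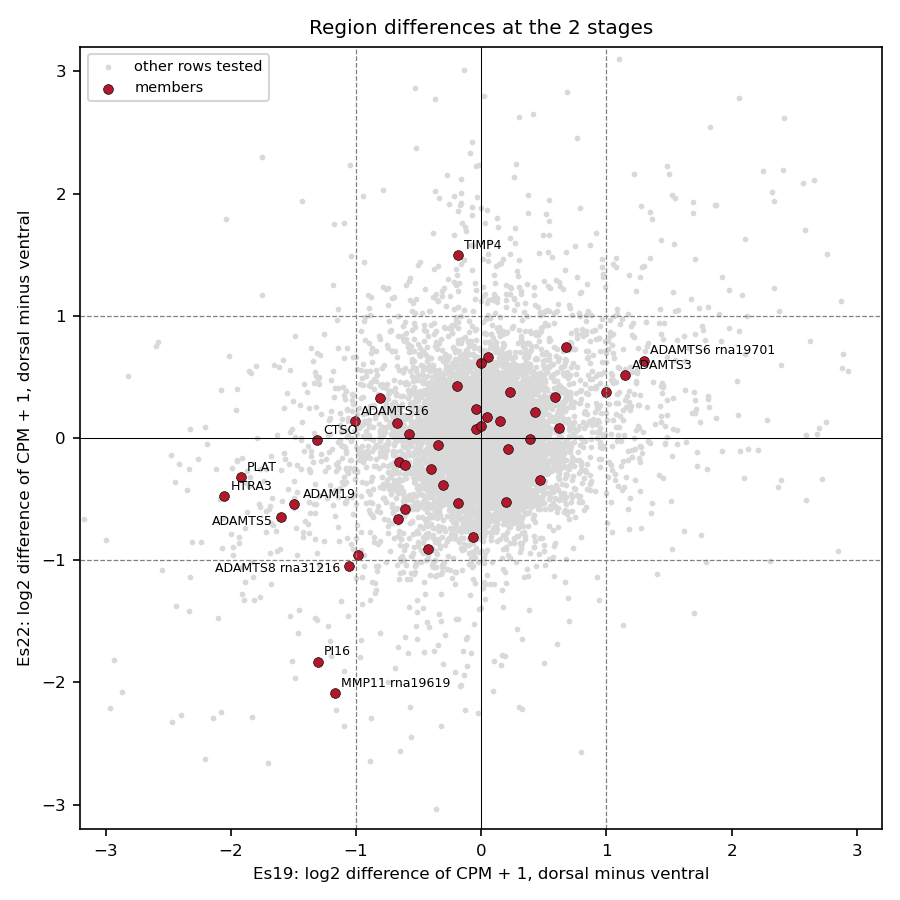
Difference in log2(CPM + 1), dorsal minus ventral, at Es19 (x axis) and at Es22 (y axis) for the members (red) and the other rows tested (grey), with dashed lines at 2-fold and 18 rows outside the axes. PI16, MMP11 record rna19619 and ADAMTS8 record rna31216 lie past the dashed lines in the lower left, where ventral dermis is higher, and HTRA3 and PLAT are far to the left at Es19 only.

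At single stages, 4 members stood 2-fold apart between regions at Es22 and 11 at Es19. At Es22, 1 member was higher in dorsal dermis, beside 2.69% of all rows, and 3 in ventral dermis, beside 1.94%. At Es19, 2 were higher in dorsal dermis, beside 2.57% of all rows, and 9 in ventral dermis, beside 2.84%. Of these 11, 10 had the same direction at Es22, beside 70.6% of the 554 rows that were 2-fold apart at Es19, and 9 had a smaller difference there, beside 89.4%. The 3 that were 2-fold apart at Es22 as well stand beside 19.7% of those rows. The other way round, 3 of the 4 members chosen at Es22 had a smaller difference at Es19, beside 86.3% of 474 rows, so a smaller difference at the other stage was common whichever stage chose the rows. HTRA3 was 1.39-fold (95% interval 1.33 to 1.46) lower in dorsal dermis at Es22 and 4.22-fold (3.84 to 4.65) lower at Es19. PLAT was 1.25-fold (1.07 to 1.47) lower in dorsal dermis at Es22 and 3.93-fold (3.43 to 4.52) lower at Es19.

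ADAM19, a membrane protease that sheds growth factors, had 37.9 CPM in Es22 dorsal against 55.6 CPM in Es22 ventral dermis, and 30.4 CPM in Es19 dorsal against 87.5 CPM in Es19 ventral dermis. It was 1.47-fold (95% interval 1.28 to 1.67) lower in dorsal dermis at Es22 and 2.88-fold (2.57 to 3.23) lower at Es19. The 2 members higher in dorsal dermis at Es19, ADAMTS3 and ADAMTS6 record rna19701, went the same way at Es22 by less. ADAMTS3 was 1.43-fold (1.36 to 1.50) higher in dorsal dermis at Es22 and 2.23-fold (2.10 to 2.37) higher at Es19. TIMP4 was the member past 2-fold on the log2(CPM + 1) scale in dorsal dermis at Es22, from 25 reads against 2, and at Es19 it had 10 reads in dorsal against 15 in ventral dermis. On the log2(CPM + 1) scale 22 of the 44 members were under 2-fold in all 4 comparisons, beside 83.1% of all rows. Among them were TIMP1, ADAM10, ADAM8, HTRA2, FAP, PLAU, RECK, CTSB and CTSC. MMP1 was counted there too, although on plain CPM it was past 2-fold in all 4.

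Genes of the same system that are not members were read from lists. Over all rows, limma called 2.66% higher and 0.469% lower at Es22, and the counts of each list stand beside these shares. Of 25 other protease inhibitors 14 had a row, and 3 rose at Es22 in limma while 0 fell. These were SPOCK2 at 17.1 and 10.7 CPM in Es22 dorsal and ventral dermis, against 2.79 and 2.17 CPM in Es19 dorsal and ventral dermis, SERPINF2, the plasmin inhibitor, at 3194 and 2109 CPM against 1128 and 937 CPM, and SERPINI1 at 413 and 191 CPM against 111 and 86.9 CPM. Their adjusted p in limma was 0.024, 0.037 and 0.028 in that order, and each met the 2-fold rule between stages. Of 26 activators and receptors 18 had a row and 17 were tested, and 3 rose while 0 fell, with THBS2, a matricellular protein that binds proteases, at 76.2 and 55.4 CPM in Es22 dorsal and ventral dermis, against 15.9 and 20.2 CPM in Es19 dorsal and ventral dermis. ANXA2, a cell surface docking protein for plasminogen, stood at 2823 and 1733 CPM in Es22 dorsal and ventral dermis, against 1012 and 839 CPM in Es19 dorsal and ventral dermis. The third called gene was the collagen uptake receptor MRC2, which was just under 2-fold.

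Of 33 other extracellular proteases 14 had a row, of which 2, CPA6 and the serine protease PRSS23, rose and 1 fell at Es22 in limma. CPA6, a secreted carboxypeptidase, had 85.9 and 27.9 CPM in Es22 dorsal and ventral dermis, against 27.5 and 8.82 CPM in Es19 dorsal and ventral dermis (adjusted p = 0.022 between stages and 0.052 between regions in limma), and it was 2-fold apart in all 4 comparisons. The carboxypeptidase CPZ, at 23.4 and 13.5 CPM in Es22 dorsal and ventral dermis against 3.87 and 5.29 CPM in Es19 dorsal and ventral dermis, met the stage rule as well. PAPPA2, which cuts IGF binding proteins, fell at Es22, with 7.40 and 14.1 CPM in Es22 dorsal and ventral dermis, against 28.9 and 32.8 CPM in Es19 dorsal and ventral dermis (adjusted p = 0.039 in limma). The membrane peptidase MME met the region rule toward ventral dermis, at 2.40 CPM in Es22 dorsal against 6.50 CPM in Es22 ventral dermis and 2.40 CPM in Es19 dorsal against 16.0 CPM in Es19 ventral dermis.

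Of 25 matrix substrates 19 had a row. This list shares COL1A1, COL1A2, COL5A1 and DCN with the fibroblast markers and COL2A1 with those of cartilage and bone. Of the 19 substrates, 17 stood higher at Es22 in both regions and 2 stood lower in both, beside 34.3% and 33.3% of all rows. In limma 5 rose and 0 fell, beside 2.66% and 0.469% of all rows. Those 5 were FBN1, the basement membrane genes COL4A1, COL4A2 and NID1, and the small proteoglycan BGN. FBN1, the fibrillin of microfibrils, had 2242 and 1625 CPM in Es22 dorsal and ventral dermis, against 773 and 664 CPM in Es19 dorsal and ventral dermis (adjusted p = 0.028 in limma). The collagen gene COL1A1 had 244340 and 208400 CPM in Es22 dorsal and ventral dermis, against 108690 and 49609 CPM in Es19 dorsal and ventral dermis. Its partner COL1A2 had 179380 and 134090 CPM against 73047 and 36703 CPM, and the collagen-binding protein SPARC 25694 and 18808 CPM against 10310 and 7550 CPM, in the same order. These 3 met the 2-fold rule between stages and were not called by limma. Their standard errors were 1.38 for COL1A1, 1.14 for COL1A2 and 0.46 for SPARC. On the log2(CPM + 1) scale SPARC differed by 1.32 in dorsal and in ventral dermis, so its error came from the trend over all rows.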

How the data were processed

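RNA-seq of alligator scale dermis was used, with 1 library per region and stage. The authors deposited CPM with TMM normalization, whose columns differ in their sums and were handled as a normalized signal. Alignment was by STAR according to the study's methods, while TopHat2 (2.1.0), HTSeq, edgeR and Partek (3) stand in the submitters' processing notes. The annotation version is not stated in the sources used here. Rows are transcript records.

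The size of 1 read in each column gave whole reads within 0.05 for 99.8% to 99.95% of values. Rows that averaged 1 CPM or more were tested with limma (version 3.58.1, intensity trend) on log2(CPM + 1), which understates differences of low genes, with Benjamini-Hochberg adjustment at 0.05. edgeR (version 4.0.16) on the recovered reads was added after the data were seen. The software was Python 3.11.15 with scipy 1.17.1, pandas 2.3.3, numpy 2.4.6 and matplotlib 3.10.9, and R 4.3.3.

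Members and lists were chosen with earlier results of these data known. Named members are every TIMP, HTRA and other member, those past 2-fold in both comparisons or called by limma, and the 3 with the highest mean CPM of each other class. Others named with values in single libraries (ADAMTS6, ADAMTSL7, MMP1 and MMP9), and list genes called by limma alone, were chosen after their values were seen. From the lists, genes 2-fold apart in both comparisons were named, at most 4 per list. The chicken libraries of the study were not analysed here.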

Additional observations from a re-analysis of the deposited data

Results flagged for a closer look

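For 7 members the difference between groups went in opposite directions under the same contrast, each time beyond counting error. This was 5 of 44 between stages, beside 5.89% of all rows, and 2 of 44 between regions, beside 10.3%. Each group is 1 library, and whether the differences differ was not tested. Between stages (Es22 minus Es19, log2(CPM + 1)) TIMP4 differed by 0.94 in dorsal and −0.74 in ventral dermis, ADAM19 by 0.31 and −0.64, CTSO by 0.88 and −0.41, FAP by 0.31 and −0.48 and PLAT by 0.49 and −1.12, dorsal before ventral. Between regions (dorsal minus ventral) MMP16 differed by −0.52 at Es22 and 0.20 at Es19, and ADAMTS4 by −0.35 at Es22 and 0.47 at Es19. TIMP4 rests on 2 reads in Es22 ventral dermis.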

How the results depend on the processing

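Members at least 2-fold higher in dorsal dermis (0) became 1 with a pseudocount of 0.1. Those higher in ventral dermis (3) became 1 with records of a symbol summed and 0 at 4-fold. The records summed as ADAMTS8 may not be of the same gene. Those higher at Es22 (4) became 1 with a pseudocount of 5, 2 with a mean of at least 5 CPM and 0 at 4-fold. With 1 library left out only 1 comparison remains, and the 4 counts ran from 1 to 2 (dorsal), 3 to 9 (ventral), 9 to 11 (higher at Es22) and 1 to 1 (lower at Es22).

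Members called by limma between stages (4) became 9 and 0 with pseudocounts of 0.1 and 5, 2 after upper-quartile rescaling, 0 without region and 8 in edgeR, and 0 to 1 with 1 library left out. Over all rows, limma called 24 between regions, with 40 and 8 for those pseudocounts, 0 without stage, 45 in edgeR and 0 to 0 with 1 library left out. Between stages it called 320, with 486 and 144, 0 without region, 515 in edgeR and 0 to 75. The limma fits with 1 library left out hold region or stage alone, so differences of the other factor enter them. Of 102 alternatives for 8 single-gene results, 0 reversed direction. These results were picked from the same data with 1 direction in both comparisons, so few alternatives could have reversed them. Members with few reads, such as TIMP4 and ADAMTSL5, are limited by depth.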
